A study of Rattus norvegicus with 6 samples.

Results

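The Rab GTPases of cultured rat hippocampal neurons were compared between cultures with and without knockdown of the synaptic scaffold S-SCAM. Members were the rows of the gene table whose symbol is Rab followed by a number, with at most 1 letter and 1 further digit after it. The rule found 52 of the 26405 genes in the table. They were sorted by role into 6 exocytic members (Rab3a to Rab3d, Rab27a and Rab27b), 5 members of other regulated or polarized exocytosis, 22 endosomal members, 12 members of the ER to Golgi and Golgi route and 7 others. The rule asks for a contrast of the exocytic members with the endosomal and Golgi members.

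Rab proteins are small GTPases that switch between a GTP-bound form on membranes and a GDP-bound form held in the cytosol, and each marks a step of vesicle transport by recruiting its own effectors. In neurons Rab3 and Rab27 sit on synaptic vesicles and dense-core vesicles and bind effectors such as the RIM and rabphilin proteins, which tie vesicles to the release site. Rab5, Rab4, Rab11 and Rab7 serve early, recycling and late endosomes, while Rab1, Rab2 and Rab6 serve the Golgi apparatus.

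RNA came from 6 primary cultures of hippocampal neurons from embryonic rats of wild-type genotype. In 3 S-SCAM KD cultures a lentivirus delivered an shRNA against all isoforms of S-SCAM, the protein of the gene Magi2, and 3 Control cultures received an empty shRNA vector according to the labels. Virus was given at DIV2 (day in vitro 2) and RNA was isolated at DIV9. The cultures are labelled as biological replicates, and they are dissociated cultures that hold glia beside neurons, so a difference in RNA can come from fewer cells of a type or from less RNA per cell, which cannot be told apart in bulk samples.

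Libraries held between 18350062 and 29654651 counts on genes in the KD cultures and between 13061705 and 24874466 in the Control cultures. Levels are given as CPM (read counts scaled by the TMM-adjusted size of each library), which are not corrected for gene length. Magi2 had 30.4, 21.1 and 40.4 CPM in KD replicates 1 to 3, against 82.8, 74.7 and 95.8 CPM in Control replicates 1 to 3. The groups did not overlap, and Magi2 averaged 36.3% of Control. Its log2 fold change was -1.46 (SE 0.27) with an adjusted p of 0.228 in edgeR's quasi-likelihood test and of 0.001236 in DESeq2, and an exact two-sided permutation test gave p = 0.1, the smallest that 3 against 3 cultures allow. KD replicate 2 stood apart from the other libraries on the first principal component (-73.7, against -24.2 and 17.0 in the other KD cultures and 22.1 to 30.4 in the Control cultures), which held 41.6% of the variance. Microglia markers summed to 6.23, 0.970 and 2.61 CPM in KD cultures, against 70.4, 11.2 and 5.81 CPM in Control cultures, and fibroblast markers to 17.1, 12.1 and 54.1 CPM in KD cultures, against 67.0, 82.8 and 67.5 CPM in Control cultures. Astrocyte markers summed to 5287, 1960 and 4501 CPM in KD cultures, against 8988, 4401 and 4112 CPM in Control cultures, and neuron markers to 4377, 5956 and 4504 CPM in KD cultures, against 3905, 6402 and 6064 CPM in Control cultures.

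Of the 52 Rab genes, 48 had enough counts to be tested. Rab17, which acts in apical transport of epithelia, had no count in any library. Rab19, Rab25 (the epithelial relative of Rab11) and Rab44 had at most 5 counts per library and were not tested. The Rab rows together took 0.607%, 0.629% and 0.535% of the counts in the KD cultures, against 0.608%, 0.556% and 0.637% in the Control cultures, so the summed Rab level of the groups overlapped.

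Most Rab genes differed little between S-SCAM KD and Control cultures, and only Rab10, a GTPase of vesicle delivery to the plasma membrane, passed a test. edgeR called 0 of the 48 Rab genes at an adjusted p under 0.05, where it also called 0 of the 13917 genes tested (0%), and DESeq2 called Rab10 alone, as lower in KD cultures, against 1.32% of the genes it tested (1.07% called lower and 0.251% higher). At an unadjusted edgeR p under 0.05 the count was 2 of 48 (4.17%), Rab10 and Rab3b, both lower in KD cultures, and 0 were higher, against 10.8% of all tested genes (7.14% lower and 3.69% higher). The log2 fold change (KD over Control) was within 0.5 of zero in 41 of the 48 members (85.4%), against 75.3% of all tested genes. The standard errors of these values ran between 0.18 and 0.82, so small differences of most members were not detectable with 3 cultures a group.

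The direction was mixed. The mean was higher in KD cultures for 19 members and lower for 29 (60.4%, against 52.4% of all tested genes), and the Rab genes had a median of -0.053 in log2 fold change beside -0.024 over all tested genes, a median that became 0.045 beside 0.074 when the trend with gene length was removed. In 7 of the 48 members (14.6%, against 17.6% of all tested genes) the groups did not overlap. KD cultures were all below Control cultures for Rab10, Rab3b, Rab21 and Rab30 (8.33%, against 10.2% of all tested genes) and all above them for Rab4a, Rab11b and Rab22a (6.25%, against 7.42%). These shares lie near those of all genes. Among the 48 members, KD replicate 2 was the highest of the 6 cultures for 12 and the lowest for 10.

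**Figure D1:**
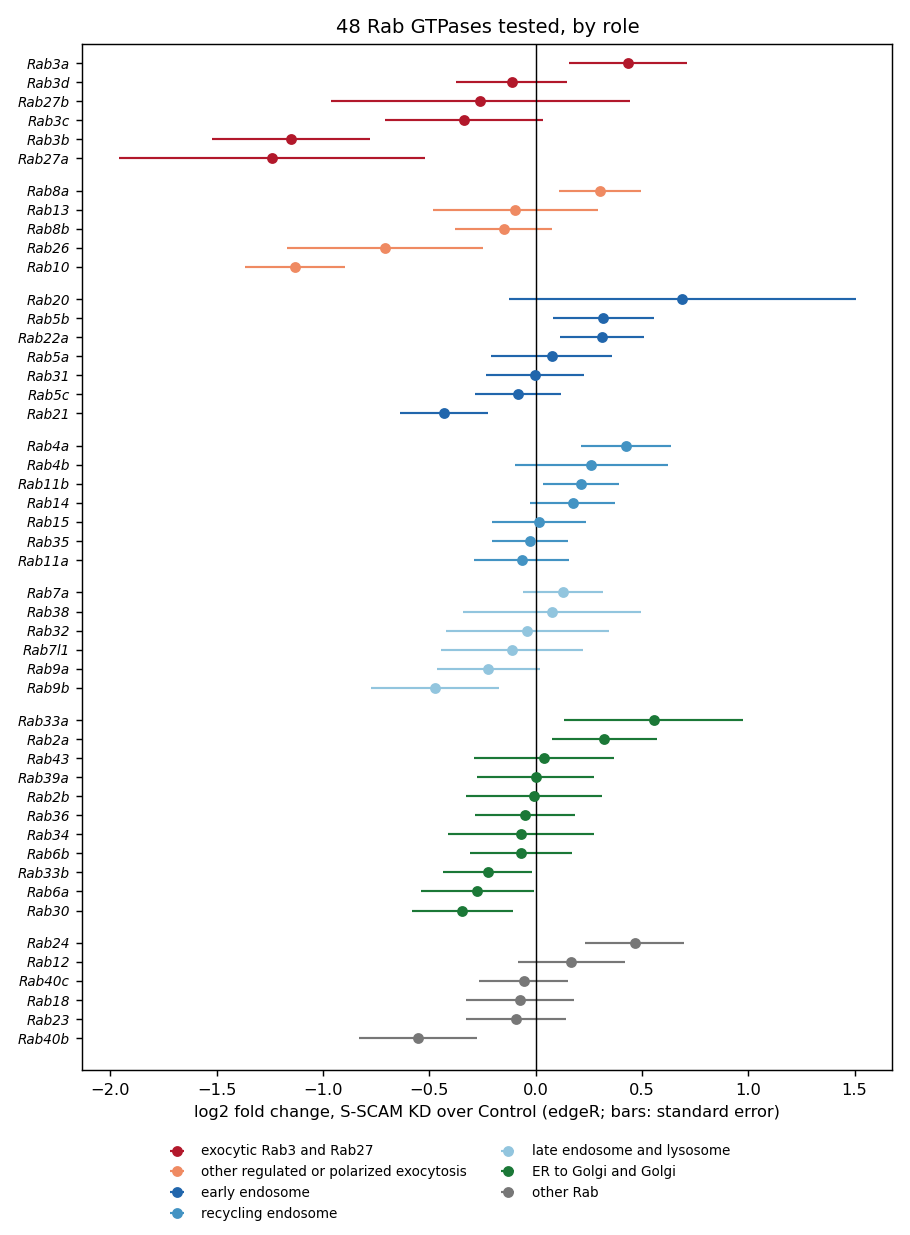
Log2 fold change of each tested Rab gene, S-SCAM KD over Control (horizontal axis, edgeR), grouped by role. Points are fitted values and bars their standard errors, derived from the F statistic of the test. Rab10 (-1.13), Rab3b (-1.15) and Rab27a (-1.24) lie furthest to the left and Rab20 (0.69) furthest to the right with the longest bar, while 41 of 48 points lie within 0.5 of zero.

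Rab10 is described first because its difference was the largest relative to its error. The study had already listed it as lower in these data. It acts in the delivery of vesicles to the plasma membrane, among them GLUT4 vesicles in mouse adipocytes, and in membrane addition to growing axons. The gene (ENSRNOG00000047088, chromosome 6, 37479074 to 37531801 in rn5) had 240.3, 178 and 285 CPM in KD cultures, against 519, 443 and 577 CPM in Control cultures. All KD cultures were below all Control cultures, with KD replicate 2 lowest, and the mean was 234 ± 53.9 CPM in KD cultures and 513 ± 67.2 CPM in Control cultures (SD, n = 3 each), or 45.7% of Control. The edgeR log2 fold change was -1.13 (SE 0.23, unadjusted p = 0.0011, edgeR adjusted p = 0.277), and DESeq2 gave -1.11 with an adjusted p of 0.00975. The DESeq2 call was lost without KD replicate 1 (DESeq2 adjusted p = 0.0797), without Control replicate 1 (0.0705) and on leaving out Control replicate 3 (0.209), and it remained without any of the other 3 cultures, while the edgeR log2 fold change stayed between -1.29 and -0.93 whichever culture was left out.

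Rab8a, Rab8b, Rab13 and Rab26 passed neither the edgeR nor the DESeq2 threshold. How they differ from Rab10 was not tested. Rab8a, which carries vesicles of the trans-Golgi network to the plasma membrane and the cilium, had 98.4, 107 and 83.8 CPM in KD cultures, against 86.7, 67.8 and 79.8 CPM in Control cultures, and the groups overlapped (log2 fold change 0.30, SE 0.19, edgeR adjusted p = 0.61). The log2 fold changes of Rab8b and of Rab13, which acts at epithelial tight junctions, were -0.15 (SE 0.23) and -0.096 (SE 0.39). Rab26, a GTPase of secretory granules, had 3.63, 1.14 and 3.28 CPM in KD cultures, against 4.77, 4.76 and 3.59 CPM in Control cultures (log2 fold change -0.71, SE 0.46, edgeR adjusted p = 0.613), and again the groups overlapped. Within each culture, Rab10 had 2.44, 1.67 and 3.40 counts for each Rab8a count in KD cultures, against 5.99, 6.53 and 7.24 in Control cultures. These ratios did not overlap. The ratio does not depend on library size, and it was 1 of 14 ratios of related Rab genes computed after their values had been seen. Of these, 5 did not overlap, 3 of them with Rab10 on top, another with Rab3b on top, and the last Rab40b over Rab40c. Rab10 and Rab3b were already separate between the groups by level, while Rab40b and Rab40c were not. No share over other pairs of genes was computed, so the count cannot be read as an excess.

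The 6 exocytic members had means on both sides of zero. Rab3a, the Rab3 of most central synapses, had a higher mean in KD cultures, and the other 5 had a lower mean (83.3%, against 52.4% of all tested genes). None was called by edgeR or DESeq2 and only Rab3b had an unadjusted p under 0.05 in edgeR. Rab3a (ENSRNOG00000019433, chromosome 16, 20292237 to 20296302 in rn5) had 364, 527 and 276 CPM in KD cultures, against 228, 336 and 299 CPM in Control cultures. KD replicates 1 and 2 were above every Control culture but KD replicate 3 was not, and the log2 fold change of 0.43 (SE 0.28, edgeR adjusted p = 0.609) was 0.19 without KD replicate 2.

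Rab3b (ENSRNOG00000008001, chromosome 5, 132343181 to 132408834 in rn5), a Rab3 found in a subset of neurons and in pituitary cells, had 18.1, 8.14 and 22.6 CPM in KD cultures, against 33.1, 44.9 and 30.5 CPM in Control cultures. Every KD culture was below every Control culture, and the mean was 16.3 ± 7.39 CPM in KD cultures and 36.1 ± 7.66 CPM in Control cultures (SD, n = 3 each). The log2 fold change was -1.15 (SE 0.37, unadjusted p = 0.0136, edgeR adjusted p = 0.381), and -0.79 without KD replicate 2. DESeq2 gave an adjusted p of 0.136, which passed the threshold only when KD replicate 3 was left out (0.0144).

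The remaining exocytic members had overlapping groups. Rab3c, a synaptic vesicle GTPase, had 8.73, 12.1 and 14.9 CPM in KD cultures, against 11.7, 23.4 and 10.2 CPM in Control cultures (log2 fold change -0.34, SE 0.37, edgeR adjusted p = 0.768), and Control replicate 2 held its highest value, without which the log2 fold change was 0.13. Rab3d, known from exocrine granules, had 41.2, 22.9 and 26.3 CPM in KD cultures, against 32.0, 31.7 and 34.0 CPM in Control cultures (log2 fold change -0.11, SE 0.26, edgeR adjusted p = 0.901), so its KD values lay on both sides of the Control values, and without KD replicate 2 the log2 fold change was 0.085. Rab27a, which works in lysosome-related organelles and exosome release, was counted 55, 20 and 40 times in KD cultures, against 202, 36 and 36 times in Control cultures. That is 2.98, 0.693 and 1.77 CPM in KD cultures, against 8.30, 2.95 and 1.42 CPM in Control cultures. Its log2 fold change of -1.24 was the lowest of all 48 members but had an SE of 0.72 (edgeR adjusted p = 0.571), and Control replicate 1, the culture with the highest summed microglia markers (70.4 CPM), held the highest value. Without that culture the log2 fold change of Rab27a was -0.26. The part of these other cells in the Rab27a level was not tested. Rab27b, the Rab27 of brain and secretory cells, was counted 10, 34 and 50 times in KD cultures, against 26, 39 and 16 times in Control cultures (log2 fold change -0.26, SE 0.70, edgeR adjusted p = 0.913). Its log2 fold change ran between -0.84 and 0.64 with single cultures left out.

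**Figure D2:**
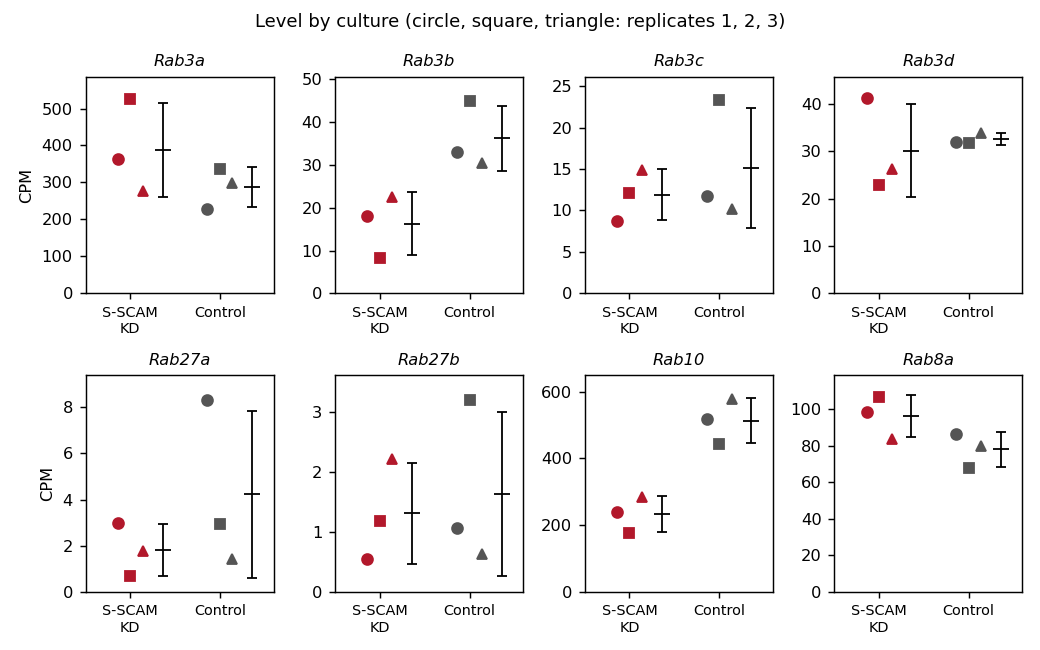
CPM (vertical axis, each panel from 0) of the 6 exocytic Rab genes and of Rab10 and Rab8a in the S-SCAM KD cultures (left, red) and the Control cultures (right, grey); circle, square and triangle are replicates 1, 2 and 3, and the bars beside them the mean and SD. The groups are separate for Rab10 and Rab3b and overlap in the other 6 panels, with Rab3a at 276 to 527 CPM in KD cultures and 228 to 336 CPM in Control cultures.

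The summed level of the exocytic group overlapped between KD and Control cultures, while the share of Rab3a in it was separate by a margin within counting error. The 6 members summed to 435, 572 and 344 CPM in KD cultures, against 314, 442 and 376 CPM in Control cultures. Rab3a made up 83.6%, 92.1% and 80.3% of their counts in KD cultures, against 72.6%, 76.0% and 79.6% in Control cultures. Its share was higher in all KD cultures than in all Control cultures, though KD replicate 3 and Control replicate 3 lay close together. The 95% Wilson intervals, which cover counting error only, reached at most 1.14 points to either side. They overlapped between KD replicate 3 (79.4% to 81.2%) and Control replicate 3 (78.8% to 80.4%). For each Rab3a count there were 0.0498, 0.0155 and 0.0818 Rab3b counts in KD cultures, against 0.145, 0.134 and 0.102 in Control cultures. This share and this ratio were computed after the values had been seen and were not tested.

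The promoters of the members with the clearest difference, Rab10 and Rab3b, and of Rab3a, whose mean went the other way, are given from RefSeq for the rat assembly GRCr8, from 250 bases before to 50 bases after the annotated start of the gene. Capitals mark the GC box (GGGCGG or, on the other strand, CCGCCC), and each sequence is written 5′ to 3′ on the strand of its gene. Their coordinates are those of GRCr8 and differ from the rn5 coordinates above.
Rab10 promoter, chr6:32039505-32039804, minus strand: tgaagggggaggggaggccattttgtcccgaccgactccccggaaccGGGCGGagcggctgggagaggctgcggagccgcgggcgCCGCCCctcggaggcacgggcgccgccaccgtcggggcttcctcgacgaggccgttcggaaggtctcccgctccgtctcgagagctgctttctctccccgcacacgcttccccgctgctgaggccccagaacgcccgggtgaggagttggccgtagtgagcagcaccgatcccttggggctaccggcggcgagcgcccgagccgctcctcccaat
Rab3b promoter, chr5:128858841-128859140, plus strand: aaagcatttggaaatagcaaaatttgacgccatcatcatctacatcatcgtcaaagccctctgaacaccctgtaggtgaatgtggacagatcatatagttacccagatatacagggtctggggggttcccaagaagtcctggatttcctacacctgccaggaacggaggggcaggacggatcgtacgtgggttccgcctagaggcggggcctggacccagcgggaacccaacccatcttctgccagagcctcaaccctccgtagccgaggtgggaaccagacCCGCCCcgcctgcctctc
Rab3a promoter, chr16:18722224-18722523, minus strand: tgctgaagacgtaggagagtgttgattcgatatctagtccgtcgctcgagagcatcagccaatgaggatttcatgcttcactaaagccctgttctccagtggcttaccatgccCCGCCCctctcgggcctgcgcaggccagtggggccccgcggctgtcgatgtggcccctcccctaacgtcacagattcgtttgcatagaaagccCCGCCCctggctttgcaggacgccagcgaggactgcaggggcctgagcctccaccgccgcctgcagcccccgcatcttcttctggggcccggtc
The Rab10 window held 37 CG dinucleotides and 2 GC boxes, the Rab3b window 13 CG dinucleotides and 1 GC box, and the Rab3a window 20 CG dinucleotides and 2 GC boxes. A GC box was found in 33 of the 43 Rab genes matched to the table (76.7%) and in 33.1% of 33469 promoters. Here and for the next element, Rab genes were counted once a gene and the background once a promoter. The shares are thus in different units, and no excess can be read from them. The cAMP response element TGACGTCA, searched on both strands, was in none of these 3 windows, in 1 of the 43 matched Rab genes (Rab25) and in 1.83% of all promoters. The 3 genes with their different log2 fold changes thus all hold a GC box in this window.

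The 20 tested endosomal members were centred near zero, with a log2 fold change of 0.045 in the median, and 11 higher and 9 lower means in KD cultures. An unadjusted edgeR p under 0.05 was found in 0 of them (against 10.8% of all tested genes) and an adjusted DESeq2 p under 0.05 in 0 (against 1.32%). Among early endosome members (median 0.075), Rab21, which binds integrins during their endocytosis, had the lowest log2 fold change. It had 63.3, 47.8 and 47.8 CPM in KD cultures, against 81.6, 68.5 and 63.9 CPM in Control cultures. The groups were separate by a margin of less than 1 CPM, and the log2 fold change was -0.43 (SE 0.21, edgeR adjusted p = 0.491). Rab22a, a relative of Rab5 on early endosomes, had 37.1, 41.1 and 34.5 CPM in KD cultures, against 31.6, 28.5 and 30.6 CPM in Control cultures (log2 fold change 0.31, SE 0.20, edgeR adjusted p = 0.605), again without overlap. Rab20, known from phagosomes of macrophages, had the highest log2 fold change of all members (0.69, SE 0.82, edgeR adjusted p = 0.784) on 4 to 43 counts per library. Its value rested on KD replicate 1 with 2.33 CPM, against 0.381 and 0.487 CPM in the other KD cultures and 1.19, 0.328 and 0.355 CPM in Control cultures, and was -0.54 without that culture. Rab31, which moves receptors between the trans-Golgi network and endosomes, had 555, 429 and 469 CPM in KD cultures, against 595, 377 and 484 CPM in Control cultures (log2 fold change -0.0038, SE 0.23), and its groups overlapped throughout. Rab5b and Rab5c, isoforms of the early endosome regulator Rab5, had log2 fold changes of 0.32 (SE 0.24) and -0.082 (SE 0.20). The row named Rab5a spans 649 bases, against 18755 for Rab5b and 23397 for Rab5c, which leaves no room for introns, and whether its reads come from Rab5a was not tested. It had a log2 fold change of 0.075 (SE 0.29), and without it the endosomal median was 0.015.

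Recycling endosome members had the highest median of the roles (0.17), with 5 of 7 means higher in KD cultures. Rab4a, the GTPase of rapid recycling to the plasma membrane, had 64.4, 87.6 and 61.2 CPM in KD cultures, against 47.1, 55.9 and 55.9 CPM in Control cultures. The groups did not overlap, and the log2 fold change was 0.43 (SE 0.21, edgeR adjusted p = 0.5), or 0.28 without KD replicate 2. Rab11b, a GTPase of the slower recycling route, had 437, 395 and 408 CPM in KD cultures, against 361, 375 and 333 CPM in Control cultures (log2 fold change 0.21, SE 0.18, edgeR adjusted p = 0.694), also without overlap. Its close relative Rab11a had 182, 251 and 176 CPM in KD cultures, against 207, 249.9 and 181 CPM in Control cultures, with overlap and a log2 fold change of -0.066 (SE 0.22). Rab4b, Rab14, Rab15 and Rab35 had overlapping groups and log2 fold changes of 0.26, 0.17, 0.015 and -0.027.

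Late endosome and lysosome members had a median log2 fold change of -0.076, and all 6 had overlapping groups. Rab7a, which drives fusion of late endosomes with lysosomes, had 388, 403 and 323 CPM in KD cultures, against 363, 326 and 329.6 CPM in Control cultures (log2 fold change 0.13, SE 0.19, edgeR adjusted p = 0.835). Rab9b, of the family that returns receptors from late endosomes to the trans-Golgi network, had 16.3, 34.7 and 26.4 CPM in KD cultures, against 30.0, 40.7 and 37.0 CPM in Control cultures (log2 fold change -0.47, SE 0.30, edgeR adjusted p = 0.607). Its 2 lowest values were KD cultures, but KD replicate 2 lay among the Control cultures. The log2 fold change was -0.21 without KD replicate 1 and -0.71 without KD replicate 2. Rab9a, Rab38, Rab32 and Rab7l1 (Rab29) had log2 fold changes of -0.22, 0.077, -0.040 and -0.11. For Rab32 and Rab7l1 the highest value was that of Control replicate 1 (11.6 and 20.8 CPM), where microglia markers were highest as well, and the part of those cells was not tested.

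Of the 11 tested Golgi members, 4 had a higher and 7 a lower mean in KD cultures, a median of -0.049 in log2 fold change. An unadjusted edgeR p under 0.05 was found in 0 of the 11 (against 10.8% of all tested genes) and an adjusted DESeq2 p under 0.05 in 0 (against 1.32%). Rab33a, which acts on vesicles that leave the Golgi for growing axons, had 32.7, 72.1 and 33.1 CPM in KD cultures, against 17.4, 45.2 and 31.6 CPM in Control cultures (log2 fold change 0.55, SE 0.42, edgeR adjusted p = 0.665). The log2 fold change was 0.11 without KD replicate 2, which held its highest value, and 0.26 without Control replicate 1. Rab30, a GTPase of the Golgi stacks, had 16.4, 25.8 and 21.8 CPM in KD cultures, against 28.9, 26.2 and 26.3 CPM in Control cultures. The groups were separate, by less than 1 CPM, and the log2 fold change was -0.35 (SE 0.24, edgeR adjusted p = 0.632), or -0.16 without KD replicate 1. Rab6b, the Rab6 enriched in neurons, had 906, 1116 and 800.2 CPM in KD cultures, against 755, 1076 and 1132 CPM in Control cultures (log2 fold change -0.070, SE 0.24), and the groups overlapped. Rab6a and Rab2a, of retrograde transport at the Golgi and of the ER to Golgi step, had log2 fold changes of -0.27 (SE 0.26) and 0.32 (SE 0.25), and those of Rab2b, Rab33b, Rab34, Rab36, Rab39a and Rab43 lay between -0.23 and 0.040.

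Rab1 lacks a member under the rule, since its rows carry other names, and its rows were read separately. The row described as RAB1 (ENSRNOG00000004992, chromosome 14, 104208410 to 104236221 in rn5), a GTPase of the ER to Golgi step, had 117, 141 and 119.8 CPM in KD cultures, against 205, 209 and 194 CPM in Control cultures. All KD cultures were below all Control cultures, at 62.0% of the Control mean, and the log2 fold change was -0.69 (SE 0.18, unadjusted p = 0.00431, edgeR adjusted p = 0.339, DESeq2 adjusted p = 0.109). The study, with an earlier version of DESeq2, lists this row among its changed genes, as lower. A row described as Rab1b spans 606 bases and had 71.8, 78.8 and 46.2 CPM in KD cultures, against 42.4, 50.3 and 41.7 CPM in Control cultures (log2 fold change 0.55, SE 0.24, edgeR adjusted p = 0.462), so the pair of Rab1 rows had means on opposite sides. Reads that fit both rows cannot be assigned with certainty, so both values are uncertain. The rows described as Rab-28 and Rab-7b had log2 fold changes of -0.011 (SE 0.22) and -0.63 (SE 0.52).

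Among the members outside these routes, Rab24, known from autophagy, had 71.0, 102 and 60.2 CPM in KD cultures, against 54.3, 60.4 and 54.3 CPM in Control cultures (log2 fold change 0.47, SE 0.23, edgeR adjusted p = 0.501). KD replicate 2 was the highest, and without it the log2 fold change was 0.26, while KD replicate 3 lay just below the highest Control culture. Rab40b, which brings substrates to a ubiquitin ligase through its SOCS box, had 6.83, 9.01 and 7.13 CPM in KD cultures, against 8.84, 11.3 and 13.6 CPM in Control cultures (log2 fold change -0.55, SE 0.28, edgeR adjusted p = 0.505), and a single KD culture overlapped with Control. Without Control replicate 3 its log2 fold change was -0.37. Rab12, Rab18, Rab23 and Rab40c had overlapping groups and log2 fold changes of 0.17, -0.074, -0.092 and -0.056.

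**Figure D3:**
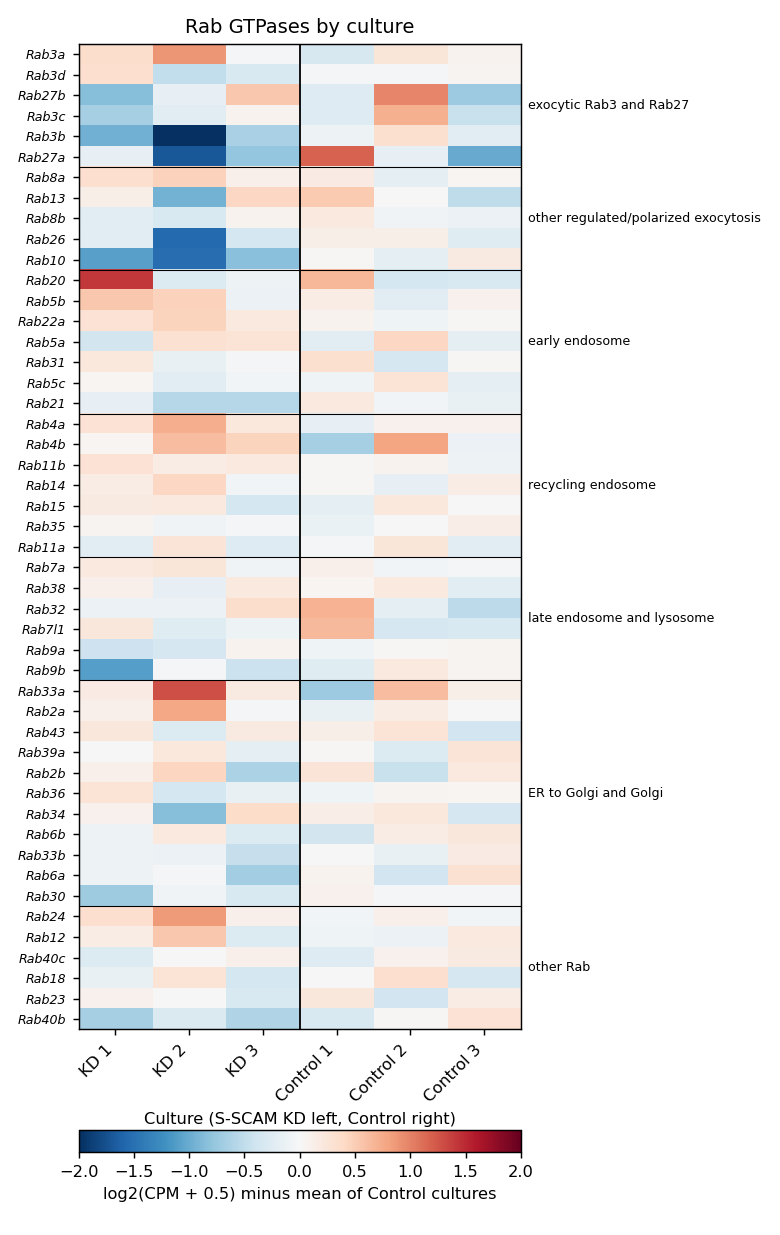
Level of each tested Rab gene (rows, by role) in each culture (columns, S-SCAM KD left and Control right) as log2(CPM + 0.5) minus the mean of the Control cultures; blue is lower and red higher. Rab10 and Rab3b are blue in all 3 KD columns, KD replicate 2 holds the darkest blue cells, and most other rows stay pale or differ as much within a group as between the groups.

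The difference of the exocytic members from the endosomal and from the Golgi members overlapped between KD and Control cultures. The median log2 fold change was -0.30 over the exocytic members (range -1.24 to 0.43), 0.045 over the endosomal members (-0.47 to 0.69) and -0.049 over the Golgi members (-0.35 to 0.55), beside -0.024 over all tested genes. In each culture, the median log2 level of the exocytic members minus that of the endosomal members, each set against the mean of the Control cultures, came to -0.53, -0.41 and -0.12 in KD cultures, against -0.20, 0.27 and -0.27 in Control cultures. KD replicates 1 and 2 were the lowest, but KD replicate 3 lay among the Control cultures, so the groups overlapped. Set against the Golgi members, the exocytic values were -0.50, -0.33 and 0.0068 in KD cultures and -0.20, 0.23 and -0.45 in Control cultures. Those groups overlapped too. The row described as RAB1, which lies outside the rule, is not in the Golgi set. The exocytic median itself depended on single cultures, being -0.68 without KD replicate 3, -0.58 when Control replicate 3 was left out and 0.012 when Control replicate 2 was, and it was -0.11 with length offsets. With 6 members that are not replicates of a condition, no test was made of the contrast.

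The list of effectors of Rab3 and Rab27, the proteins that the GTP-bound form recruits, held 15 genes. It took in Rims3 and Rims4 as relatives of Rims1, and whether they bind a Rab was not tested. Of the 15 genes, 11 were tested and all 11 had a lower mean in KD cultures (against 52.4% of all tested genes). With RLE normalization or length offsets, 10 of them did. The median of the 11 was -0.50 on the log2 scale, beside -0.024 over all tested genes. KD cultures were all below Control cultures for 5 of the 11 (45.5%, against 10.2% of all tested genes), and 3 had an unadjusted edgeR p under 0.05 (27.3%, against 7.14% called lower). The list was chosen with earlier results of these data known, and the study had already listed Rims1 and Rph3a as changed in these data. These shares therefore describe the list and are no support for a change common to it. Rims1, the active zone scaffold that ties Rab3 vesicles to the release machinery, had 57.4, 48.5 and 51.9 CPM in KD cultures, against 82.6, 94.8 and 102 CPM in Control cultures. Each group was tight and the groups were well apart, with a log2 fold change of -0.82 (SE 0.19, edgeR adjusted p = 0.291) and a DESeq2 adjusted p of 0.0444, a call that held when KD replicate 3 was left out and was lost when any of the other 5 cultures was (DESeq2 adjusted p between 0.0602 and 0.421). Rph3a, the vesicle protein rabphilin, had 57.2, 27.1 and 72.4 CPM in KD cultures, against 92.3, 110.5 and 116 CPM in Control cultures (log2 fold change -1.02, SE 0.34, edgeR adjusted p = 0.388), and KD replicate 2 was again the lowest. Without it the log2 fold change was -0.68. Myrip, which links Rab27a to myosins and actin, had 18.3, 6.86 and 15.2 CPM in KD cultures, against 33.1, 22.0 and 22.9 CPM in Control cultures (log2 fold change -0.95, SE 0.37, edgeR adjusted p = 0.427), without overlap. It was -0.60 without KD replicate 2. The other 2 without overlap were Rims2 (-0.49, SE 0.22) and Exph5 (-0.41, SE 0.32), and the remaining log2 fold changes ran from -0.89 for Rph3al to -0.012 for Rims3, which had a mean of 17.0 ± 5.28 CPM in KD cultures and 17.1 ± 3.93 CPM in Control cultures (SD, n = 3 each). Sytl1, Sytl4 and Mlph had too few counts to be tested. Of the 8 tested neuron markers, 5 had a lower mean in the same KD cultures (median log2 fold change -0.24). Snap25 (65.8% of Control) and Syt1 (77.4%), of the release machinery, did not overlap between the groups. They were the 2 of 8 neuron markers with all KD cultures below Control, against 10.2% of all tested genes. The 3 neuron markers with a higher mean were the vesicle protein Syp (138% of Control), Nefl (142%) and Tubb3 (106%), all with overlapping groups. All tested astrocyte (7), microglia (6) and fibroblast (4) markers had a lower mean as well. Other markers were mixed, with 4 higher and 3 lower means for interneurons and 5 of each for the oligodendrocyte lineage. Endothelial and mural markers had 1 higher and 2 lower means. The part of any of these cells in the effector levels was not tested.

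The genes listed as regulators of Rab3 and Rab27 were balanced. Of the 6 tested, 3 had a higher and 3 a lower mean, and the median was 0.029 on the log2 scale. Rab3ip and Rab3il1 are among the 6 by name, and which Rab they act on was not tested. Rab3gap1 was listed too, but no gene was found under that name. Tbc1d10b, a GTPase-activating protein for Rab27 and others, had the smallest p, with 123, 133 and 128 CPM in KD cultures, against 97.9, 119 and 116 CPM in Control cultures (log2 fold change 0.21, SE 0.18, edgeR adjusted p = 0.696). The 7 tested genes of the general Rab machinery were mixed as well, with 3 higher and 4 lower means. Chm, the escort protein REP1 that presents Rab proteins for prenylation, had 4.23, 7.21 and 10.7 CPM in KD cultures, against 14.1, 18.9 and 10.2 CPM in Control cultures (log2 fold change -0.96, SE 0.39, edgeR adjusted p = 0.43), and KD replicate 3 overlapped with Control. Rabac1, a membrane protein that binds prenylated Rab proteins, had a log2 fold change of 0.61 (SE 0.28, edgeR adjusted p = 0.472), and its groups overlapped too. The study, with an earlier version of DESeq2, lists Rabac1 among its changed genes, as higher.

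Among the partners of the endosomal and Golgi members DESeq2 called 1 gene of the 28 endosomal and 1 of the 13 Golgi and polarized partners tested, both lower in KD cultures, against 1.07% of all genes. These genes, Rab11fip2 and Ocrl, had already been listed by the study as lower in these data. Of the endosomal partners, 13 had a higher and 15 a lower mean (median log2 fold change -0.092). Rab11fip2, a Rab11 effector that links recycling vesicles to myosin Vb, had 7.59, 7.62 and 10.3 CPM in KD cultures, against 21.3, 15.2 and 22.4 CPM in Control cultures, a wide gap between the groups. Its log2 fold change was -1.21 (SE 0.27, edgeR adjusted p = 0.291, DESeq2 adjusted p = 0.014), and the DESeq2 call held without KD replicate 3 (0.00222) or Control replicate 2 (0.00398) and was lost when any of the other 4 cultures was left out (0.0944 to 0.273). Ccz1, part of the complex that activates Rab7, had 24.0, 32.3 and 32.2 CPM in KD cultures, against 43.9, 42.8 and 39.1 CPM in Control cultures (log2 fold change -0.51, SE 0.21, edgeR adjusted p = 0.444, DESeq2 adjusted p = 0.459). Plekhm1, a Rab7 effector of lysosome fusion, lay on the other side, with 68.8, 67.5 and 64.1 CPM in KD cultures, against 48.5, 44.2 and 56.5 CPM in Control cultures (log2 fold change 0.42, SE 0.19, edgeR adjusted p = 0.462). Of the 13 tested Golgi and polarized partners, 8 had a higher and 5 a lower mean (median 0.073). Ocrl, an inositol phosphatase that binds Rab1, Rab5, Rab6 and Rab8, had 21.0, 23.5 and 30.2 CPM in KD cultures, against 51.7, 50.9 and 53.8 CPM in Control cultures, a gap far wider than either group. Its log2 fold change was -1.07 (SE 0.22, edgeR adjusted p = 0.269, DESeq2 adjusted p = 0.00848), a call lost on leaving out KD replicate 1 (0.104), KD replicate 2 (0.0507), Control replicate 1 (0.0602) or Control replicate 3 (0.171). Rgp1, part of the complex that activates Rab6, and Tbc1d20, a GTPase-activating protein for Rab1, were higher in all KD than in all Control cultures, with log2 fold changes of 0.52 (SE 0.24, edgeR adjusted p = 0.48) and 0.42 (SE 0.21, edgeR adjusted p = 0.499).

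**Figure D4:**
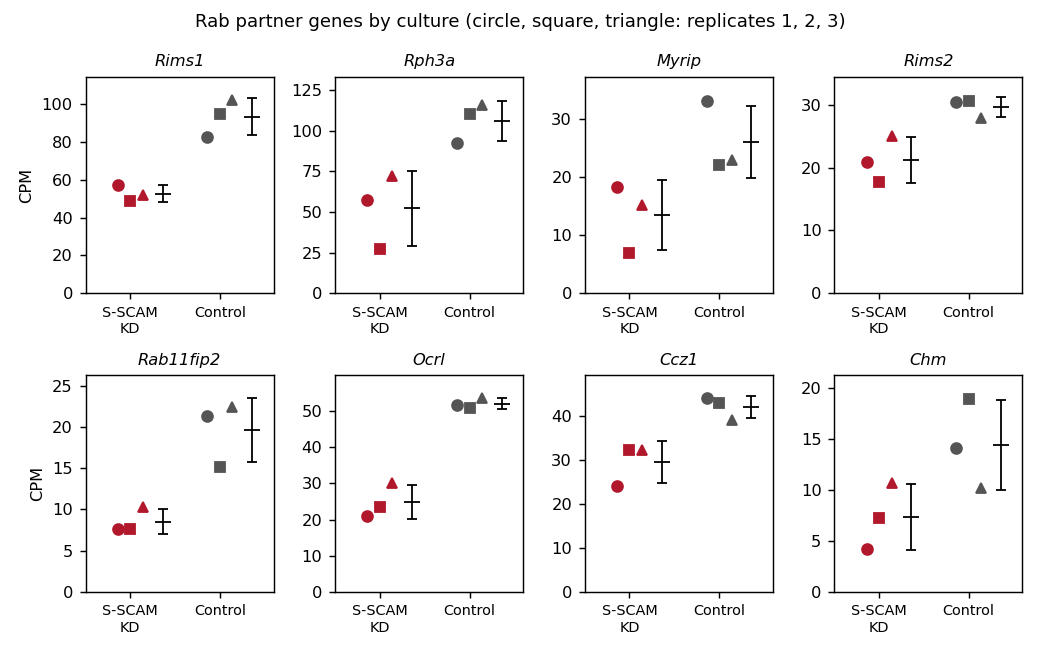
CPM (vertical axis, each panel from 0) of 8 partner genes of Rab proteins in the S-SCAM KD cultures (left, red) and the Control cultures (right, grey); circle, square and triangle are replicates 1, 2 and 3, and the bars beside them the mean and SD. Chm overlaps between the groups and the other 7 do not, with Ocrl at 21.0 to 30.2 CPM in KD cultures and 50.9 to 53.8 CPM in Control cultures. The 8 were picked from the partners and all have a lower mean in KD cultures. Partners with a higher mean and no overlap, such as Plekhm1, Rgp1 and Tbc1d20, are not shown. Over all tested genes 17.6% did not overlap, and the 7 picked here do not stand for the partners as a whole.

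Gene length, which here runs from start to end with introns, was related to the log2 fold change over all 13917 tested genes (Spearman's rho -0.23) and about as much over the 48 Rab genes (-0.21), given as descriptions across genes of the same 6 libraries. Rab10 (52728 bases) and Rab3b (65654 bases) are longer than Rab8a (21729 bases) and Rab3a (4066 bases). With the fitted length trend removed, the log2 fold change was -0.94 for Rab10 and -0.96 for Rab3b, on a scale on which the median of all genes was 0.074 in place of -0.024.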

How the data were processed

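RNA of 3 S-SCAM KD and 3 Control cultures was prepared with a TruSeq kit that does not keep the strand and read as single reads of 50 bases. The authors aligned the reads to rn5 with STAR 2.3.0 and counted them per Ensembl gene with HTSeq 0.6, and the deposited values are these raw counts. The Ensembl release and the strand and overlap settings are not given in the sources used here. The labels give an empty shRNA vector as control, while a legend of the study names a control shRNA.

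Groups follow the labels. Counts were tested in R 4.3.3 with edgeR 4.0.16 (TMM, filterByExpr with a minimum of 10 counts, quasi-likelihood test, condition alone, Benjamini-Hochberg over 13917 genes, threshold 0.05), and with DESeq2 1.42.0, which gave adjusted p-values for 14743 genes. The analysis steps were tested on simulated data. P-values of these fits set the difference between KD and Control against the spread between cultures of the same group, over 6 cultures. Each SE beside an edgeR log2 fold change is its absolute value divided by the square root of the F statistic of that test. Alternatives were limma-voom (limma 3.58.1), other normalizations and filters, a replicate block, offsets for gene length (loess, span 0.5), a fold change prior in DESeq2, and leaving out each culture. The members, roles and lists were chosen with earlier results of these data known. Values are given for every Rab3 and Rab27 member, members past a threshold, the highest and lowest log2 fold change and the highest CPM of each role, and up to 3 partners a list or those DESeq2 called. Promoters come from RefSeq (GRCr8), which matched 43 of the 52 members, Rab7l1 under the name Rab29.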

Additional observations from a re-analysis of the deposited data

How the results depend on the processing

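edgeR called 0 Rab genes under each alternative of its fit, and limma-voom also 0. DESeq2 called 1, Rab10, with the default, the stricter filter, no filter, the fold change prior and the replicate block, and 0 to 2 when a culture was left out (0 without KD replicate 1, Control replicate 1 or Control replicate 3, and 2 without KD replicate 3). Over all genes the count of 0 became 195 with DESeq2, 8 without a filter on low counts and 0 to 1 when a culture was left out (1 without KD replicate 2).

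The exocytic median ran from -0.68 to 0.012 when a culture was left out and the endosomal median from 0.026 to 0.14. With length offsets the exocytic median was -0.11, the endosomal median 0.14 and the Golgi median 0.059, where the median of all genes was 0.074. Of the Rab3 and Rab27 effectors, the stricter filter left 7 to test, and all 7 had a lower mean. Alternatives for partner genes and Magi2 were chosen after seeing the data, and in DESeq2 Rims1 was lost without independent filtering (adjusted p = 0.0594) and with the replicate block (0.0979), where Rph3a was called (0.037).

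Magi2 passed the threshold with DESeq2 (-1.44), also without its independent filtering (-1.44), with the stricter filter (-1.46), the replicate block (-1.48) and the fold change prior (-1.19), and without KD replicate 1 (-1.42), 2 (-1.23) or 3 (-1.69) and Control replicate 1 (-1.45) or 2 (-1.53), but not without Control replicate 3.

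Some members changed sign. Length offsets gave 0.015 for Rab11a, 0.086 for Rab6b and 0.28 for Rab31. Rab31 was also 0.022 with DESeq2 and without its independent filtering, 0.018 with limma-voom, 0.012 with RLE, 0.022 without a filter, 0.013 with the replicate block, and 0.041 and 0.019 with the block and the prior in DESeq2. When a culture was left out, the edgeR range was -0.21 to 0.083 for Rab11a, -0.54 to 1.59 for Rab20, -0.84 to 0.64 for Rab27b, -0.14 to 0.17 for Rab31, -0.53 to 0.13 for Rab3c, -0.38 to 0.085 for Rab3d and -0.23 to 0.066 for Rab6b. The reversed DESeq2 values were 0.047, 0.057 and 0.083 for Rab11a, -0.52 for Rab20, 0.13 and 0.65 for Rab27b, 0.11, 0.043, 0.20 and 0.035 for Rab31, 0.14 for Rab3c, 0.080 for Rab3d, and 0.060, 0.0062 and 0.083 for Rab6b. The cause of these shifts was not tested.

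Cultures of equal replicate number also share a number in the column names of the table, but no source used here says what that number marks. Deviations of same-numbered cultures correlated at 0.61, 0.10 and -0.091, and those of differently numbered cultures at -0.45 to 0.23. Whether the cultures were pairs was not tested. The main fit had no block because the methods of the study name none. The replicate block left 0 Rab genes called by edgeR. DESeq2 with it called 290 genes in all, against 195 without it, with an adjusted p of 0.0015 for Rab10. With 3 cultures a group, and standard errors up to 0.82 for members with few counts, small differences could not be seen.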
